A study of Mus musculus with 2 samples.

Results

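The 10 genes described here are the ligands and receptors of the VEGF and angiopoietin systems: Vegfa and Vegfc, the VEGF receptors Kdr and Flt1, the co-receptors Nrp1 and Nrp2, the angiopoietin receptor Tek with its partner Tie1, and the ligands Angpt1 and Angpt2. They were taken by symbol, and all 10 of 10 were found among the 32285 genes counted. Single cells were sequenced from mouse carotid arteries 18 hr after a ligation injury of the endothelium. One library was labelled EC-Cx43-KO (genotype CDH5 Cre+ Cx43fl/fl) and the other was the control (CDH5 Cre- Cx43fl/fl), so both carry the floxed allele of Cx43, the gap junction protein encoded by Gja1. The design text calls the knockout inducible and endothelial-specific; the inducing agent, the ages and whether Cre acted in other cells are not given in the sources used here.

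With 1 library per group there was no replicate, and no test between the groups was possible. Arteries of a condition were pooled after a 20 min digestion, with up to 5 combined at a time, and the cells were frozen before sequencing. Levels are UMIs of a gene per 1000000 UMIs of the same cells (CPM), and ratios are log2 of EC-Cx43-KO over control. All intervals are exact 95% intervals that cover counting error only. They leave out the difference between mice and, for levels and ratios, the uneven spread of UMIs among cells.

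VEGF-A acts mainly through Kdr (VEGFR2), while Flt1 (VEGFR1) binds it strongly with weak signalling and can act as a decoy. Neuropilins present VEGF to these receptors and also bind class 3 semaphorins. Angpt1 activates Tek (Tie2) and steadies the endothelium, and Angpt2, stored in endothelial cells, often opposes it. Kdr is typically low in the endothelium of large arteries and high in capillaries.

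Upstream sequence of 3 receptors is shown because Kdr and Flt1 were high in the same small group of capillary cells while Tek was not. In GRCm38, Kdr spans chr5:75932827-75978458 with 30 exons, Flt1 chr5:147561604-147726011 with 30 exons and Tek chr4:94739289-94874976 with 23 exons. The sequences come from RefSeq promoters of GRCm38.p6, and 8 of the 10 genes had an entry; Angpt1 and Angpt2 had none. The Kdr window lies at chr5:75978459-75978705 on the minus strand, Flt1 at chr5:147726012-147726261 on the minus strand and Tek at chr4:94739039-94739288 on the plus strand. Each reads 5′ to 3′ on the gene's strand and ends next to the annotated start of the gene. Capitals mark the ETS core, GGAA on either strand, a motif bound by endothelial ETS factors.
Kdr: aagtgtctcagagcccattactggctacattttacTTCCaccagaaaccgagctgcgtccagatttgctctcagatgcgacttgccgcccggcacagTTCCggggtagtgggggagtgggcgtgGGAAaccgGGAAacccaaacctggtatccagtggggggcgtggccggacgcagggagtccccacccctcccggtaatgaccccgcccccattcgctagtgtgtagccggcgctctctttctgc
Flt1: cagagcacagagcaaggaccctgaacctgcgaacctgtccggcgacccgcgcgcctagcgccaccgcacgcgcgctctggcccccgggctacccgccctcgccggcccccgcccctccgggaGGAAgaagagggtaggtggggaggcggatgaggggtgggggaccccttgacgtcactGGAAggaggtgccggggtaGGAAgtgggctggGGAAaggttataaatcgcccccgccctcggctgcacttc
Tek: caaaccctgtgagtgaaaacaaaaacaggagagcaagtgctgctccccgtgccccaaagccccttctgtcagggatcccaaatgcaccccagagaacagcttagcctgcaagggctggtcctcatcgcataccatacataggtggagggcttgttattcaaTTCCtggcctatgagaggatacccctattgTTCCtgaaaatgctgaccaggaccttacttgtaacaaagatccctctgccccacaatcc
Kdr and Flt1 held 4 ETS cores each and Tek held 2. The motif is common: it was present in 93.4% of 32817 promoters of 250 bases, with a median of 3, so these counts are a description only. The TATA box letters TATAAA occurred 1 time upstream of Flt1 and 0 times upstream of Kdr and Tek, against 12.4% of all promoters with a match.

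The libraries held 8315 barcodes with 54392831 UMIs (EC-Cx43-KO) and 7298 barcodes with 48862850 UMIs (control), of which 7236 and 6376 were kept. Only 17 barcodes were shared between them. Clusters, built without the 10 genes, gave 7 classes with at least 100 cells in each library, including 550 EC-Cx43-KO and 480 control endothelial (EC-like) cells. Their 12 endothelial markers summed to 7509 and 7661 CPM, with all 12 detected in both libraries. Gja1, the floxed gene, was not lower: EC-like cells had 29.1 CPM (120 UMIs) in the library labelled EC-Cx43-KO and 22.2 CPM (91 UMIs) in the control, a log2 ratio of 0.39 (-0.02 to 0.80). Without the capillary cells described below, it was at 17.9 and 17.3 CPM (0.05, -0.45 to 0.55). The floxed part of the gene is not given in the sources used here, so whether these 3′ UMIs come from it cannot be told. The direction of every ratio below therefore rests on the library labels alone. The sex-linked RNA Xist was at 124 and 229 CPM in EC-like cells, so the mix of female and male cells differed.

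Some of the 10 genes belonged mainly to 1 class and others were spread. Tie1 and Tek were endothelial: EC-like cells held 97.2% of the Tie1 UMIs of kept cells in each library, and 85.6% of those of Tek in EC-Cx43-KO and 88.8% in control. Tek reached 542 CPM (520 to 565) in EC-Cx43-KO and 504 CPM (482 to 526) in control EC-like cells, the highest level of any of the 10 genes in any of the 7 classes. Nrp1 was spread, with 32.2% and 20.8% of its UMIs in monocyte/macrophage-like, 29% and 30.4% in fibroblast-like and 13.8% and 14.7% in EC-like cells. Of the Kdr UMIs, EC-like cells held 37.9% in EC-Cx43-KO and 55.7% in control, and monocyte/macrophage-like cells 50.7% and 17.2%. Flt1 stood at 225 and 205 CPM in EC-like cells, and its next class was smooth muscle (SMC-like), at 62.8 and 71.6 CPM. Kdr was the scarcest of the 4 receptor tyrosine kinases in EC-like cells, at 31.5 and 16.6 CPM. Of EC-like cells, 12.9% (10.2 to 16.0) in EC-Cx43-KO and 9.58% (7.10 to 12.6) in control held a Kdr UMI, against 79.5% and 82.3% for Tek. Each UMI marks 1 captured RNA molecule, and these levels were not scaled by gene length. An effect of gene length on the order of the genes was not tested. The levels do not separate membrane from soluble Flt1 or the isoforms of Vegfa.

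**Figure D1:**
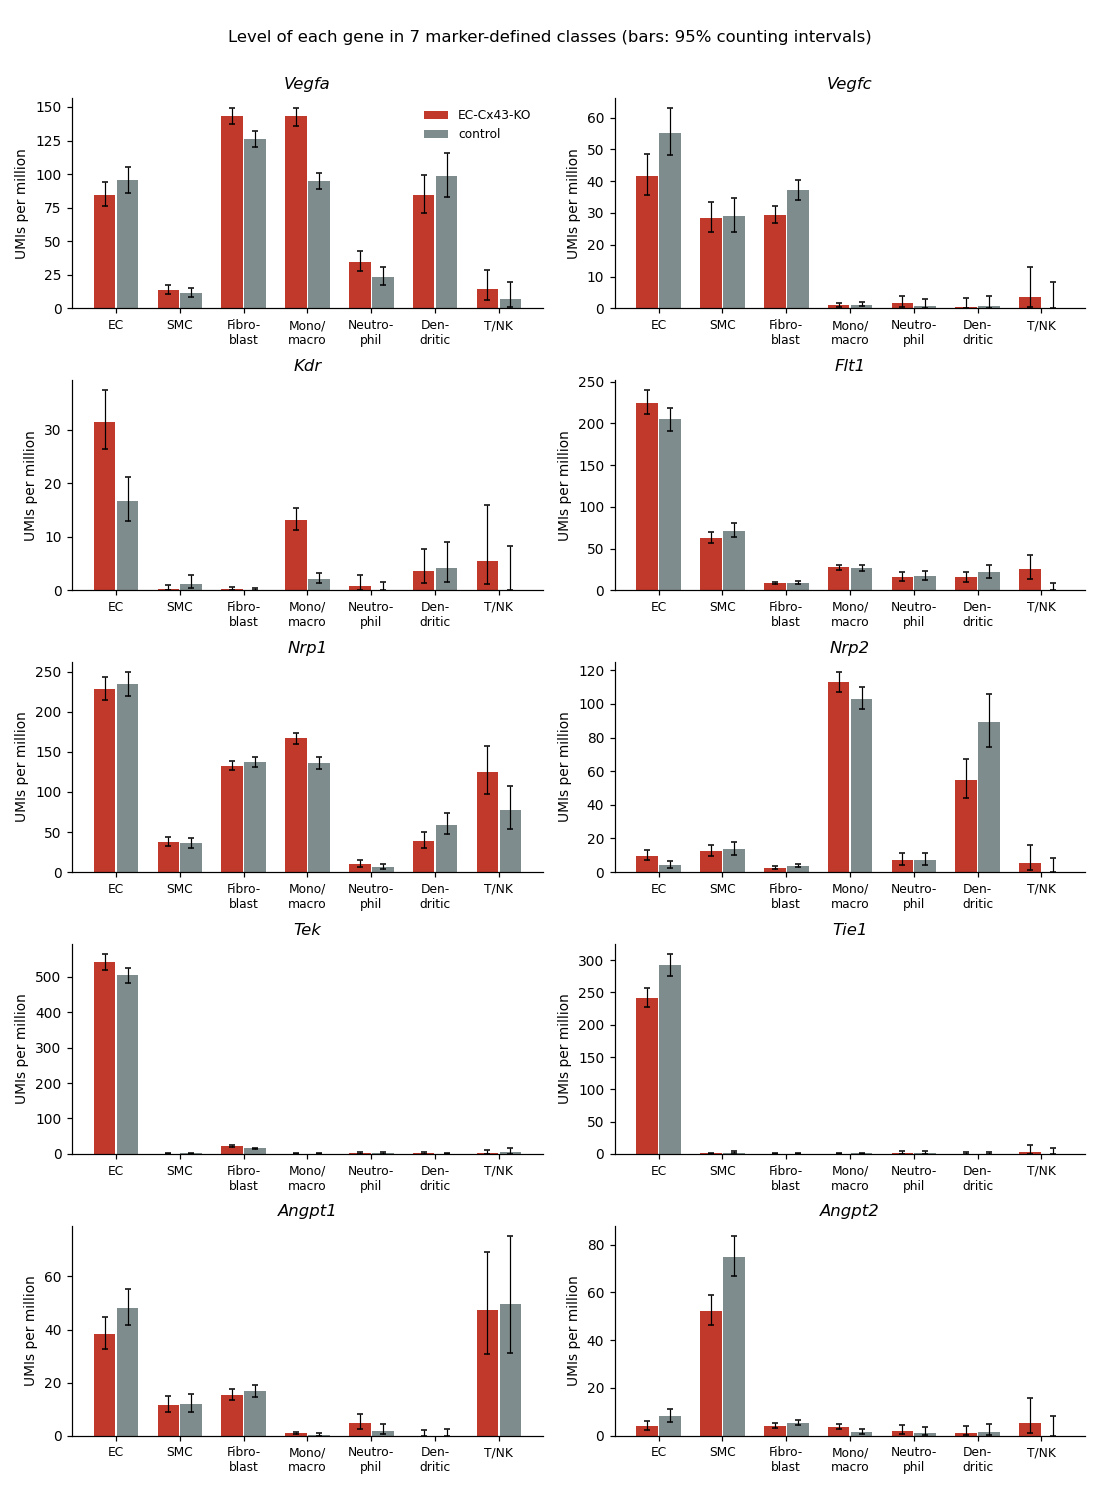
CPM (y axis, linear) of each of the 10 genes in 7 classes (x axis), with EC-Cx43-KO in red left of control in grey; bars carry 95% Poisson intervals. Tek and Tie1 stand almost alone in EC-like cells, Angpt2 is highest in SMC-like cells and Nrp2 in monocyte/macrophage-like cells.

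The ligands came from several cell types. Vegfa was at 143 and 126 CPM in fibroblast-like cells and at 143 and 94.6 CPM in monocyte/macrophage-like cells. Dendritic-like (84.2 and 98.8 CPM) and EC-like cells (84.8 and 95.3 CPM) were below both in EC-Cx43-KO, but in control their intervals overlapped that of monocyte/macrophage-like cells. Vegfc, the lymphatic VEGF ligand, was led by EC-like cells at 41.7 and 55.2 CPM, followed by fibroblast-like (29.4 and 37.3) and SMC-like cells (28.4 and 28.9), whose intervals overlapped. Angpt2 was an SMC-like transcript here, at 52.4 and 75 CPM, and EC-like cells had 3.88 and 8.06 CPM. Angpt1 reached 47.2 and 49.8 CPM in T/NK-like cells and 38.3 and 48.1 CPM in EC-like cells, which overlapped. Angpt2 lies within Mcph1 on the opposite strand, and whether counting used strand is not given in the sources used here. Mcph1 was at 14.0 and 14.9 CPM in SMC-like cells, below Angpt2, but above it in EC-like cells (12.8 and 21 CPM) and in monocyte/macrophage-like cells (14.4 and 16.1 CPM), so reads of the 2 genes may not be separable in those classes.

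In EC-like cells, 2 of the 10 genes were at least 1.5-fold higher in EC-Cx43-KO (Kdr and Nrp2) and 1 was at least 1.5-fold lower (Angpt2). Over the 11839 genes with at least 20 UMIs there, 10.6% passed this rule, 4.22% higher and 6.37% lower. The median log2 ratio was -0.10 over the 10 genes and -0.06 over all genes. Kdr had 130 UMIs in EC-Cx43-KO and 68 in control, a log2 ratio of 0.92 (0.49 to 1.37). Nrp2 had 40 and 16 UMIs, a log2 ratio of 1.31 (0.44 to 2.25). Both were higher while Flt1, the other VEGF receptor, and Nrp1, the other neuropilin, were close to level. Flt1 was at 0.14 (0.00 to 0.27) and Nrp1 at -0.04 (-0.17 to 0.09). Angpt2 had only 16 and 33 UMIs, a log2 ratio of -1.06 (-2.02 to -0.15). Tie1 was lower by a smaller step, at 242 CPM (999 UMIs) in EC-Cx43-KO and 293 CPM (1198 UMIs) in control, -0.27 (-0.40 to -0.15). Tek, at 0.11 (0.02 to 0.19), did not share that direction. Vegfc (-0.41, -0.70 to -0.11), Angpt1 (-0.33, -0.64 to -0.02) and Vegfa (-0.17, -0.38 to 0.04) were under the 1.5-fold rule. The 3 calls rest on EC-like cells as clustered. Without a shallow cluster of 152 and 117 EC-like cells, Kdr was at 0.35 and 1 call was left. Nrp2 then had 2 and 4 UMIs, too few to give a direction. That cluster held all 23 EC-Cx43-KO and 7 control cells of the Fabp4 and Cd36 group described below. Of these, 22 and 6 were capillary cells, so leaving the cluster out also removes most capillary cells. In EC-like cells with Xist and no Y-linked UMI Kdr was at 1.11, and in those with Y-linked and no Xist UMIs at 0.94, while Nrp1 was at -0.43 and 0.68.

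A few capillary cells held much of the Kdr and Nrp2 in EC-like cells. EC-like cells with UMIs of at least 2 of the capillary genes Gpihbp1, Cd36, Fabp4 and Cd300lg numbered 28 of 550 (5.09%, 3.41 to 7.27) in EC-Cx43-KO and 11 of 480 (2.29%, 1.15 to 4.06) in control. They held 3.82% and 2.65% of the EC-like UMIs, but 45.4% and 20.6% of the Kdr UMIs and 80% and 43.8% of the Nrp2 UMIs. After leaving them out, Kdr was at 17.9 CPM (71 UMIs) in EC-Cx43-KO and 13.6 CPM (54 UMIs) in control, a log2 ratio of 0.40 (-0.13 to 0.94). Nrp2 had 8 and 9 UMIs, too few for the rule, at 2.01 and 2.26 CPM. A median share of free RNA over all marker lists (5.58% and 5.65% of the library level) would give 3.52 and 3.73 CPM. Macrophage markers in EC-like cells were at lower shares, 2.52% and 1.64%, and Nrp2 was highest in monocyte/macrophage-like cells. Whether these few UMIs are free RNA was not tested. No gene was then 1.5-fold higher and 1 of the 9 genes tested was lower, Angpt2 at -1.07 (-2.32 to 0.08), against 10.4% of 11731 genes passing, 4.19% higher and 6.22% lower. Tie1 stayed at -0.28 (-0.41 to -0.16) and Flt1 at -0.06 (-0.21 to 0.09). Fewer capillary cells and less RNA per cell enter these sums alike, so the cell counts are given beside them.

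**Figure D2:**
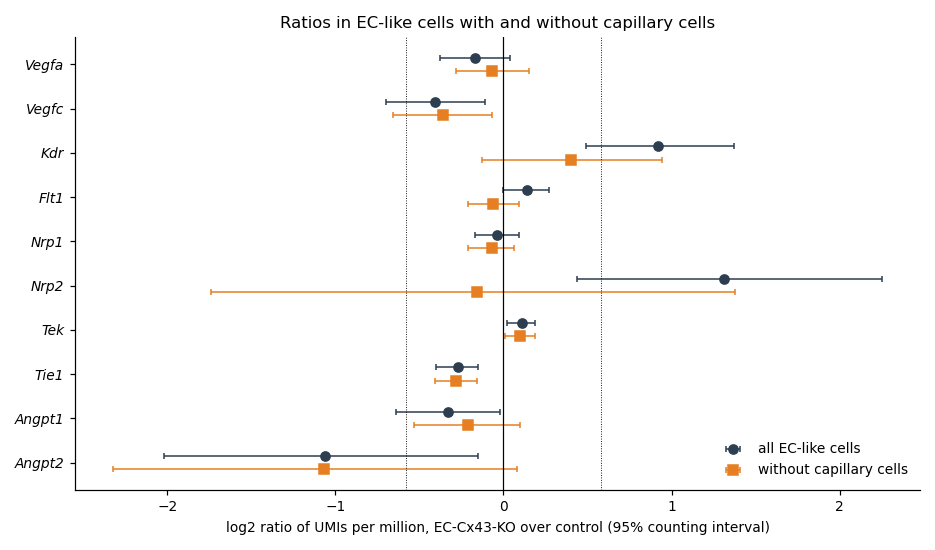
Log2 ratio of CPM, EC-Cx43-KO over control (x axis), for each gene (y axis) in all EC-like cells (circles) and without capillary cells (squares), with 95% counting intervals; dotted lines mark 1.5-fold. Kdr moves to 0.40 and Nrp2 to -0.16 without these cells, while Tie1 (-0.28), Tek (0.10) and Angpt2 (-1.07) differ little from their values with them.

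Within each library, the capillary cells had their own receptor profile. Kdr was at 374 CPM in capillary against 17.9 CPM in other EC-like cells of EC-Cx43-KO, 20.9-fold (14.5 to 30.0), and at 129 against 13.6 CPM in control, 9.51-fold (4.88 to 17.4). Flt1 was 6.81-fold higher (5.79 to 7.97) in EC-Cx43-KO and 3.44-fold higher (2.66 to 4.39) in control capillary cells than in the other EC-like cells. Nrp2 reached 203 and 64.4 CPM, against 2.01 and 2.26 CPM in the other EC-like cells. The angiopoietin receptors did not join: Tek was lower in capillary than in other EC-like cells, by a log2 ratio of -0.37 (-0.74 to -0.01) in EC-Cx43-KO and -0.79 (-1.34 to -0.29) in control. Tie1 was at -0.05 (-0.56 to 0.43) and -0.42 (-1.06 to 0.16). Angpt2, by contrast, was 38 and 110 CPM in capillary cells, against 2.52 and 5.27 CPM in the other EC-like cells. Between the libraries, Kdr in capillary cells had a log2 ratio of 1.54 (0.68 to 2.49) and Flt1 of 0.92 (0.53 to 1.33), and these cells had median depths of 2171 and 7836 UMIs. They were not alike in makeup: 22 of the 28 in EC-Cx43-KO and 6 of the 11 in control fell in the Fabp4 and Cd36 group described next, where the ratio was 0.59 (-0.29 to 1.58) for Kdr and 0.07 (-0.35 to 0.51) for Flt1. Summed markers in the capillary cells also differed, with erythroid genes at 9829 and 193 CPM, monocyte/macrophage genes at 266 and 18.4 CPM, pericyte genes at 63.4 and 313 CPM and activated endothelial genes at 532 and 4343 CPM. Their part in the ratios was not tested. Single cells weigh heavily in these sums: 1 EC-Cx43-KO cell held 19 of the 59 capillary Kdr UMIs, and 1 control cell held 8 of the 12 Angpt2 UMIs.

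**Figure D3:**
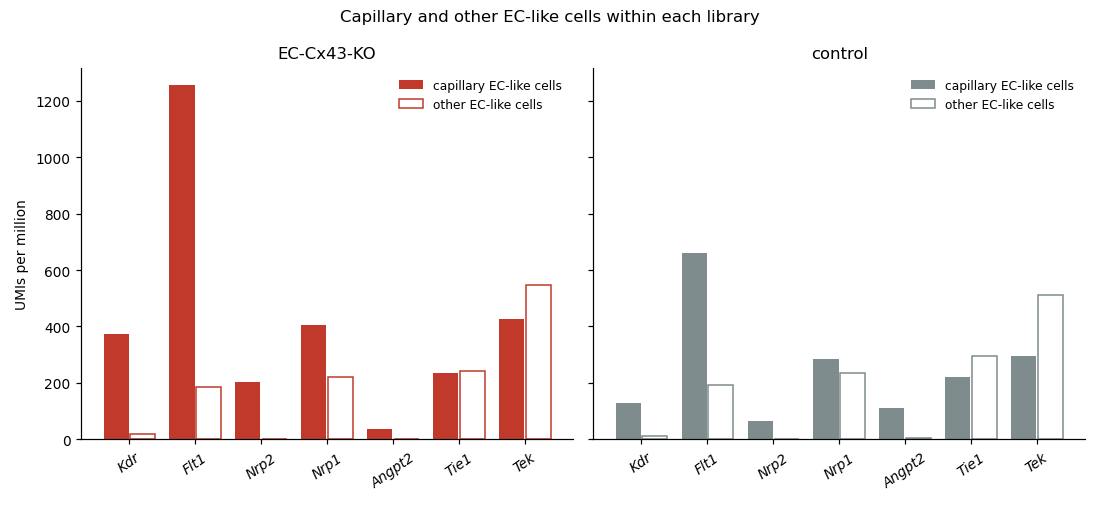
CPM (y axis, linear) of 7 genes in capillary (filled) and other (open) EC-like cells of each library, EC-Cx43-KO on the left. Kdr, Flt1, Nrp2 and Angpt2 are higher in the capillary cells of both libraries, and Tek is lower.

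Reclustering the EC-like cells gave 6 groups with different mixtures of these genes. A group led by Fabp4 and Cd36, with 23 EC-Cx43-KO and 7 control cells, was highest in Flt1 (1599 and 1524 CPM) and Kdr (489 and 325 CPM). It held no Vegfa UMI in either library, with upper interval bounds of 30.6 and 92.2 CPM. All EC-like cells had Vegfa at 84.8 and 95.3 CPM, so the bound in control is near the level of the class. Cells led by Ccnd1, Ano1 and Procr (62 and 56 cells) had less Tek (242 and 276 CPM) and less Nrp1 (91.3 and 123 CPM) than the 2 largest groups, where Tek was 522 to 739 CPM and Nrp1 205 to 298 CPM. Their Flt1 was at 303 and 225 CPM (0.43, 0.15 to 0.71), against 145 to 219 CPM in the 2 largest groups. Vegfa was highest in a group led by Col3a1 and Nkx2-3 (37 and 39 cells), at 249 and 232 CPM.

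The count of capillary cells depended on the removal of likely doublets. Of the 580 Kdr UMIs in all EC-Cx43-KO barcodes, 237 (40.9%) lay in barcodes ranked as doublets, against 9 of 131 (6.87%) in control. These barcodes held 10.2% and 8.29% of all UMIs. Within them, 40 EC-Cx43-KO and 3 control barcodes had at least 2 capillary genes and at least 3 endothelial markers, and they carried 208 and 0 Kdr UMIs. Of the 40, at least 3 markers were detected for smooth muscle in 7, for fibroblasts in 10 and for monocytes and macrophages in 7. In the 33 kept EC-Cx43-KO barcodes of the same description, these counts were 1, 5 and 2. Median depth was 5754 UMIs in the 40 and 3101 in the 33. Summed markers of smooth muscle were at 3610 CPM in the 40 and 251 CPM in the 33. Those of monocytes and macrophages were at 1439 and 356 CPM, of neutrophils at 1719 and 557 CPM and of fibroblasts at 3728 and 3047 CPM. Endothelial markers were at 4725 and 5196 CPM. Over all barcodes, Kdr was at 10.7 CPM in EC-Cx43-KO and 2.68 CPM in control, and Flt1 at 46.6 and 35.9 CPM. With doublets kept, the EC-like log2 ratio was 2.08 for Kdr and 0.60 for Flt1, with 63 and 14 capillary cells, and Kdr without capillary cells was still 0.34. Whether the barcodes ranked this way are doublets was not tested.

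**Figure D4:**
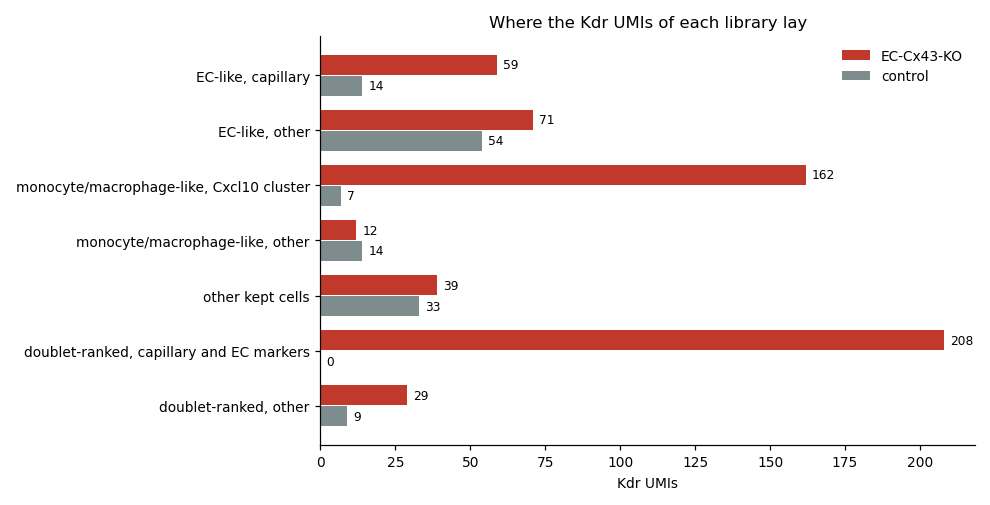
Number of Kdr UMIs (x axis) by the kind of barcode that held them (y axis), EC-Cx43-KO in red above control in grey; no error bars, as these are counts of 1 library each. The EC-Cx43-KO library exceeds the control mainly in doublet-ranked capillary barcodes (208 and 0), in the Cxcl10 macrophage cluster (162 and 7) and in capillary EC-like cells (59 and 14).

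In the other 6 classes, 32 pairs of gene and class had at least 20 UMIs; 5 were at least 1.5-fold higher in EC-Cx43-KO and 3 lower. Over all genes, 10.1% passed in SMC-like cells (5.02% higher, 5.07% lower), 11.7% in fibroblast-like (5.39% and 6.31%) and 13.2% in monocyte/macrophage-like cells (9.38% and 3.86%). The shares were 19.5% in neutrophil-like cells (9.04% higher, 10.5% lower), 21.8% in dendritic-like (7.13% and 14.7%) and 24% in T/NK-like cells (10.4% and 13.6%). Monocyte/macrophage-like cells held 3 of the higher genes: Vegfa (143 and 94.6 CPM; 0.59, 0.48 to 0.71), Kdr (174 and 21 UMIs; 2.65, 1.99 to 3.38) and Angpt2 (50 and 16 UMIs; 1.24, 0.40 to 2.15). Nrp1 was higher in T/NK-like cells (0.70, 0.09 to 1.34) and in neutrophil-like cells (0.79, -0.20 to 1.84). Lower were Nrp2 and Nrp1 in dendritic-like cells (-0.70, -1.10 to -0.31; -0.61, -1.10 to -0.13) and Nrp2 in fibroblast-like cells (-0.61, -1.24 to 0.01). The lower calls in dendritic-like cells stand beside a median of -0.12 over all genes there.

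Macrophage Vegfa was higher within clusters, and the mix of clusters differed too. A cluster led by Ccl24 and Cxcl14 (221 and 167 cells) had the most Vegfa of the macrophage clusters, 472 CPM in EC-Cx43-KO and 262 CPM in control, a log2 ratio of 0.85 (0.67 to 1.03). A Tppp3 cluster had 120 and 62.1 CPM (0.95, 0.67 to 1.24), and Chil3 monocytes had 111 and 79.1 CPM (0.49, 0.29 to 0.69). Cxcl10 macrophages, which made up 21.2% of the class in EC-Cx43-KO and 8.52% in control, were level at 89.3 and 86.8 CPM. Lyve1 macrophages, a resident type, had almost none (2 and 1 UMIs) but the highest neuropilins, with Nrp1 at 750 and 670 CPM and Nrp2 at 403 and 312 CPM. A cluster led by Fabp5, Ppbp, Spp1 and Pf4 (553 and 886 cells) was left unnamed because platelet genes were among its leading genes; it had Vegfa at 163 and 124 CPM. Joined to the class, it brought the Vegfa ratio to 0.49, under the 1.5-fold rule. Doublets kept gave 0.46.

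Most macrophage Kdr in EC-Cx43-KO, 162 of 174 UMIs, lay in 1 cluster, which held 7 of 21 in control. In the Cxcl10 cluster, which expresses interferon-response genes, 68 of 398 EC-Cx43-KO cells and 5 of 119 control cells held a Kdr UMI, with at most 12 UMIs in 1 cell. The level was 56.9 and 7.79 CPM (2.87, 1.79 to 4.21). In fibroblast-like cells, 4 Kdr UMIs were found in 1505 EC-Cx43-KO cells and 1 in 1333 control cells, at median depths of 7009 and 7498 UMIs. The source of the Kdr UMIs in the Cxcl10 cluster was not tested. The 12 endothelial markers summed to 49.9 and 31.2 CPM in this cluster (73.9 CPM in EC-Cx43-KO cells with Kdr, 44.1 CPM in those without). Of 2845473 and 898497 UMIs in the cluster, Pecam1 had 60 and 11, Cdh5 28 and 8, Vwf 21 and 1, and Emcn 0 in both libraries. The 68 cells with Kdr in EC-Cx43-KO had 4 Cdh5 UMIs and 162 of Kdr. By sex-linked RNA, macrophages with Xist and no Y-linked UMI had 105 and 10 Kdr UMIs, and those with Y-linked and no Xist UMIs had 4 and 6. The rest of the Kdr UMIs lay in cells with both or neither kind of UMI. Cdh5, which defines endothelium, had 48 and 16 UMIs in monocyte/macrophage-like cells (1.18, 0.34 to 2.10), higher in the same library as Kdr and Angpt2, and its part in these results was not tested.

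**Figure D5:**
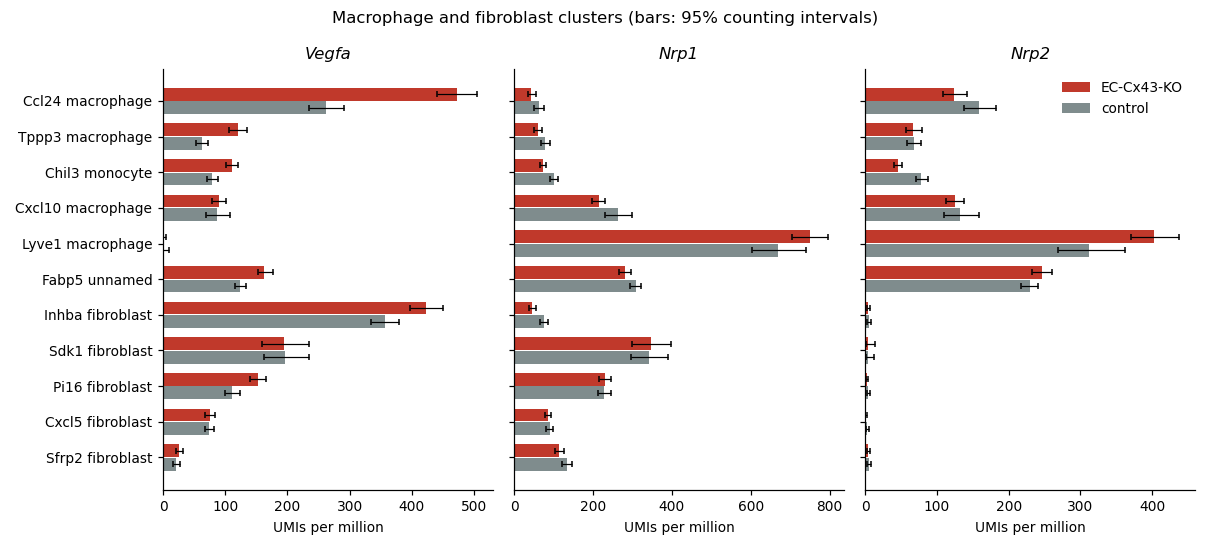
CPM (x axes, linear) of Vegfa, Nrp1 and Nrp2 in 6 macrophage or monocyte clusters, 1 of them unnamed, and 5 fibroblast clusters (y axis), EC-Cx43-KO in red above control in grey, with 95% Poisson intervals. Vegfa peaks in Ccl24 macrophages and Inhba fibroblasts, and both neuropilins peak in Lyve1 macrophages.

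Fibroblast clusters divided the system among themselves. Inhba fibroblasts, also marked by Esm1 and Il11, had the most Vegfa of the fibroblast clusters, at 423 and 356 CPM (0.25, 0.12 to 0.38), and Nrp1 of 45.1 and 75.8 CPM. Pi16 fibroblasts, of the adventitia, had Nrp1 at 230 and 228 CPM and Tek at 71.8 and 59.4 CPM, with Tek in 106 of 244 and 75 of 178 cells. They had no Cdh5 UMI in either library, and their 12 endothelial markers summed to 128 and 132 CPM. Over all fibroblast-like cells Tek was at 23.2 and 15.6 CPM (0.57, 0.33 to 0.82), just under the rule, and Tie1 at 0.467 and 0.275 CPM. Vegfc was level in Sfrp2 fibroblasts, at 51.8 and 50 CPM, and lower in EC-Cx43-KO in Sdk1 (38 and 85.3 CPM; -1.17, -1.97 to -0.41), Pi16 (16.7 and 25.6 CPM; -0.62, -1.12 to -0.12) and Inhba fibroblasts (44.3 and 63.1 CPM; -0.51, -0.88 to -0.15). Placental growth factor Pgf, an Flt1 ligand outside the 10 genes, had 173 and 68 UMIs in fibroblast-like cells (1.30). Of the 29 partner genes described below, 26 were tested in these cells, where 11.7% of all genes passed the rule. Pgf was the 1 higher, and 5 were lower (Cdh5, Plxnd1, Sema3f, Dok2 and Nos3). The median over the 26 was -0.13, against -0.08 over all genes. In SMC-like cells Pgf was at -0.57 (-1.03 to -0.12).

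Smooth muscle supplied most Angpt2, 59.6% of the UMIs of kept cells in EC-Cx43-KO and 64.1% in control. The SMC-like ratio was -0.52 (-0.75 to -0.28), under 1.5-fold. The difference lay in the Rgs4 cluster, at 54.9 and 104 CPM (-0.92, -1.23 to -0.61), while the Sost cluster was level at 49.6 and 48.6 CPM (0.03, -0.36 to 0.42). One control cell of the Rgs4 cluster held 24 Angpt2 UMIs, 145 endothelial marker UMIs and 205 smooth muscle marker UMIs. Without it the cluster was at 54.9 and 92.9 CPM (-0.76, -1.08 to -0.44) and SMC-like cells at -0.41. Over the cluster the 12 endothelial markers summed to 107 and 198 CPM, with 3 and 31 Cdh5 UMIs, and 25 of the 31 lay in that control cell.

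Smaller groups gave single strong values. Flt1 was at 250 and 249 CPM in Adgre4 monocytes (45 and 21 cells), a level of the same order as in EC-like cells. Angpt1, which platelets are known to carry, was at 379 CPM (24 UMIs in 54 cells) in the platelet-like cells of EC-Cx43-KO. In the 8 control cells 0 UMIs were found, and 3 counts there would be 325 CPM. The interval of the log2 ratio ran from -0.19 upward without limit, so it does not separate the libraries. Arpp21 T cells (53 and 43 cells) had Angpt1 at 174 and 213 CPM and Nrp1 at 257 and 78.4 CPM (37 and 7 UMIs).

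Genes around the 10 were counted in EC-like cells by the same rule, which 10.6% of all genes passed. Of 29 partners of the 10 genes, 22 had enough UMIs and 0 passed the 1.5-fold rule in either direction, with a median log2 ratio of -0.19 against -0.06 over all genes. Ptprb (VE-PTP), the phosphatase that restrains Tek and Kdr, was at 1761 and 1687 CPM (0.06, 0.01 to 0.11), Itgb1 at 921 and 888 CPM, Cdh5 at 762 and 728 CPM and Plxna2 at 435 and 545 CPM (-0.32, -0.41 to -0.23). The semaphorin Sema3f was at 240 and 332 CPM (-0.47, -0.59 to -0.35), the adaptor Gab1 at 44.1 and 59.1 CPM (-0.42, -0.71 to -0.14) and the integrin Itgav at 83.8 and 108 CPM (-0.36, -0.57 to -0.16). Of 16 genes known to be induced by VEGF in endothelium, 15 were tested, 2 were higher (Apln and Adm, on 14 and 26 UMIs in EC-Cx43-KO against 8 and 11 in control) and 1 lower (Dusp5, 22 and 38.4 CPM, -0.80), with a median of 0.13. The most abundant of them, Egr1, was at 2279 and 2072 CPM (0.14, 0.10 to 0.18). Of 15 genes induced by hypoxia, 13 were tested, 2 were higher (Slc2a1 and Adm) and 0 lower, with a median of -0.14. Without capillary cells, 10.4% of all genes passed the rule. Of 13 VEGF-induced genes tested there, 0 were higher and 1 was lower (Dusp5). Apln (7 and 0 UMIs) and Adm (8 and 10 UMIs) then had too few UMIs to be tested. Of 12 hypoxia genes tested, 0 were higher and 2 lower. These were Pgk1 (-0.59, -0.82 to -0.38) and Pdk1, on 14 and 22 UMIs (-0.65, -1.73 to 0.38).

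Over the 14 points of class and library, the genes with the most similar pattern were Adh7 (Pearson r = 0.989) and Ecscr (0.979) for Tek, Sox17 (0.994) and Gata2 (0.991) for Tie1, and Fez1 (0.994) for Vegfc. For Kdr the best match was Dnaaf3 (0.894), for Flt1 Cep85l (0.915) and for Vegfa Pnp (0.927). Among the 10 genes, Tek and Tie1 were closest (0.86), and Nrp2 and Angpt1 most opposed (-0.83). These correlations describe 14 points that share 2 libraries and 7 classes, over 12834 genes.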

How the data were processed

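The data are 10x single-cell 3′ RNA libraries, 1 per group. The deposited matrices hold whole-number UMI counts per gene and barcode, made by the authors with Cell Ranger 8.0.1, per the file headers; STAR and mm10 are named in the submitters' processing notes. Barcodes needed 300 genes and at most 15% mitochondrial UMIs, and the barcodes most like simulated doublets (a share of 0.008 for each 1000 barcodes in the library) were removed, 476 in EC-Cx43-KO and 363 in control. Cells were clustered (2000 variable genes, 30 components, 20 neighbours, Leiden resolution 1.0, 26 clusters) without the 10 genes, and named from marker lists; genes of endothelial states counted as endothelial when leading genes were read. UMIs were summed per class and library. CPM carry exact Poisson intervals, ratios exact conditional binomial intervals and shares exact binomial (Clopper-Pearson) intervals. A gene passed when 1.5-fold apart (log2 0.58) with 20 UMIs over both libraries. For the ratios, counts under 3 were set to 3, while the intervals used the counts themselves. Ratios were tested on simulated data. The genes named were the 10, the 3 genes most similar in pattern and 3 pathway lists; members, lists and tests were chosen with earlier results of these data known. Free RNA, read from markers of other classes, had a median of 5.58% of the library level in EC-Cx43-KO and 5.65% in control. Alternatives changed filters, doublet removal, resolution, scaling, free RNA, UMI minimum and the capillary rule. Tools were Python 3.11.15, NumPy 2.4.6, SciPy 1.17.1, scikit-learn 1.9.0 and leidenalg 0.10.2.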

Additional observations from a re-analysis of the deposited data

Results flagged for a closer look

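Angpt2 differed in opposite directions between classes: the log2 ratio of EC-Cx43-KO over control was 1.24 in monocyte/macrophage-like cells (50 and 16 UMIs) and -1.06 in EC-like cells (16 and 33 UMIs). Nrp2 was at 1.31 in EC-like cells and -0.70 in dendritic-like cells. Nrp1 was at 0.70 in T/NK-like cells and -0.61 in dendritic-like cells. Each of these 6 counting intervals lay on 1 side of 0, but the differences between classes were not tested, with 1 library per group. Without capillary cells, Nrp2 in EC-like cells was at -0.16 (-1.74 to 1.38) on 8 and 9 UMIs. In both classes flagged for Angpt2, its reads may not be separable from those of Mcph1.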

How the results depend on the processing

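In EC-like cells the 3 calls became 0 when cells with at least 1 capillary gene were left out. They became 1 without the shallow EC cluster, which holds all cells of the Fabp4 and Cd36 group. That alternative was chosen after seeing the data, as were the splits by sex-linked RNA and the joining of the unnamed Fabp5 cluster. Without capillary cells, the 1 call became 2 with the mean of single-cell CPM, 0 at a minimum of 50 UMIs, 0 and 3 with at least 1 or 3 capillary genes in the rule, 2 with doublets kept and 2 in cells with Y-linked RNA only. In the other classes the 8 calls became 18 with no UMI minimum, 5 at resolution 2.0 and 4 in cells with Xist only. The Kdr ratio in EC-like cells, 0.92, became 1.70 as the mean of single-cell CPM, 2.08 with doublets kept and 0.35 without the shallow cluster, and was 0.51 to 1.11 otherwise. The Nrp2 ratio in EC-like cells came out at -0.52 without cells holding 1 capillary gene (3 and 4 UMIs), -0.43 without the shallow cluster (2 and 4 UMIs) and -0.78 in cells with Y-linked RNA only (3 and 3 UMIs), and Kdr in monocyte/macrophage-like cells at -1.10 in cells with Y-linked RNA only (4 and 6 UMIs). These 4 values have the opposite sign but rest on fewer than 20 UMIs and give no direction. The cause of the other changes was not tested. Leaving out the Kdr ratio in EC-like cells, 179 of 202 values of single genes stayed within the counting interval of the main value. Many alternatives reuse the same UMIs, so part of this agreement is built in. No paired analysis was possible because each group has 1 library. Depth limits Kdr, Nrp2 and Angpt2 most, with 198, 56 and 49 UMIs in EC-like cells.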
